A study of Mus musculus with 18 samples.

Results

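The importin-alpha adaptors examined here were Kpna1, Kpna2, Kpna3, Kpna4 and Kpna6, 5 of the 55401 gene models in the mRNA count files, taken by gene name, together with every circRNA whose ends lay inside them, 13 of the 16171 circRNAs listed in any library. Importin-alpha proteins recognise the classical nuclear localisation signal of a cargo protein and link it to importin-beta, which carries the complex through the nuclear pore. In the nucleus RanGTP releases the cargo, and the exportin CSE1L returns importin-alpha to the cytoplasm. Exportin 4, encoded by Xpo4, belongs to the same karyopherin superfamily as importin-beta and CSE1L, while the importin-alphas are adaptors built from armadillo repeats. CircRNAs are closed RNAs made when the end of an exon is spliced back to the start of the same or an earlier exon, and a read across this backsplice junction identifies them.

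The cells were NIH/3T3, fibroblasts of mouse embryo origin obtained from ATCC, cultured in DMEM with serum. Wild-type (WT) cells were compared with XPO4 knockout (KO) cells made with CRISPR-Cas9, in which both gene copies carry an identical edit. How many KO clones were used is not given in the sources used here. The mRNA-seq comprised 3 libraries per genotype, and the circRNA-seq, made after RNase R digestion of linear RNA, comprised 2 libraries per genotype from each of the nuclear, cytoplasmic and whole-cell RNA. Nothing in the labels says that the replicates came from separate cultures, so p-values measure only the spread between these libraries.

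Depth ranged from 16974062 to 22057323 reads assigned to genes in mRNA-seq. The circRNA libraries held between 50629 and 81941 junction reads in the cytoplasm, between 50341 and 58165 in whole-cell RNA and between 2189 and 4383 in the nucleus. The heading inside each mRNA count file names the other genotype than the sample title. Titles were followed, and every direction of an mRNA difference given here would turn if the headings were right. The knocked-out gene itself did not pass the test: the Xpo4 counts were 657, 614 and 685 in the WT libraries against 712, 504 and 687 for KO (edgeR quasi-likelihood test, log2 fold change 0.18, adjusted p = 0.193). Without KO replicate 2 it was higher in KO (log2 fold change 0.34, edgeR adjusted p = 0.000252). Whether the edit lowers the Xpo4 mRNA is not given in the sources used here, so its level was not used to check the titles or headings. KO replicate 2 stood apart from the other KO libraries, with a chi-square per gene of 9.74 and 11.3 against them, where the other pairs within a genotype lay between 2.92 and 4.65. Fibroblast markers were abundant in every library, with a summed level of 2678 to 2773 FPKM (fragments per 1000 bases of exon and 1000000 counted reads) in WT and 2772 to 2869 in KO. Of these 9 markers, 5 passed the test with higher and 3 with lower levels in KO, or 88.9%, beside 48.7% of all genes tested. Of 14 markers of leukocytes, epithelium, endothelium, neurons and muscle, 11 stayed under 1 FPKM in every library, Epcam and Krt18 had no read, and the summed level was 5.69 to 7.79 FPKM in WT and 4.52 to 5.93 in KO. Those that exceeded 1 FPKM were Cd68, Map2 and Tubb3. Cd68 was at 3.75 to 5.60 FPKM in WT and 2.32 to 3.33 in KO, and Map2 at 1.16 to 1.46 and 0.624 to 0.856. Tubb3 had no read in WT and was at 0.571 to 1.11 FPKM in KO. Of the 6 markers of other cell types that could be tested, 3 were higher and 3 lower in KO, so all passed, beside 48.7% of all genes. In bulk libraries, fewer cells of a type and less RNA per cell cannot be told apart, and the part of these shifts in the results was not tested.

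The 13 circRNAs came from 3 of the 5 genes: 5 from Kpna1, 4 from Kpna4 and 4 from Kpna6. None was listed for Kpna2 or Kpna3. Each is named by its first and last exon in the reference transcript of its gene, so circKpna1(5-11) joins the end of exon 11 to the start of exon 5. All 13 had both ends on exon edges, with AG directly before the first exon and GT directly after the last. The junctions on which the results turn are shown in RNA sense as 40 bases of the reference genome GRCm38.p6, with the end of the last exon in lower case and the start of the first exon in capitals. The first 3 passed the test in the cytoplasm. The fourth shares its first exon with circKpna6(8-12) but closes 1 exon earlier, and the last had the most reads of all 13.
circKpna1(5-11): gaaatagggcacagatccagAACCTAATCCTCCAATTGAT
circKpna6(8-12): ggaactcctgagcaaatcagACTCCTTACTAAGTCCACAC
circKpna6(5-7): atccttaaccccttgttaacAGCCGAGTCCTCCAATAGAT
circKpna6(8-11): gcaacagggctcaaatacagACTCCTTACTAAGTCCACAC
circKpna1(2-3): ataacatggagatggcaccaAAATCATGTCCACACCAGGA

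On GRCm38, circKpna1(5-11) spans chr16:36012893-36029647 on the plus strand and circKpna1(2-3) spans chr16:36000182-36002950. On the minus strand of Kpna6, circKpna6(8-12) spans chr4:129650684-129654387, circKpna6(8-11) spans chr4:129651588-129654387 and circKpna6(5-7) spans chr4:129654865-129656402. The capitals of circKpna6(8-12) and circKpna6(8-11) are the same bases, the start of exon 8, and only the lower-case donor side tells their reads apart. The circKpna1(2-3) junction holds the ATG of the Kpna1 reading frame, and the other junctions shown lie inside the coding sequence.

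The first comparison asked whether loss of XPO4 was accompanied by a change in the mRNAs of the importin-alpha adaptors. None of the 5 mRNAs passed the test, with fold changes of KO over WT between 1.03 and 1.096. At the same threshold, an adjusted p of 0.05, 7151 of 14688 genes tested passed, or 48.7%. By direction, 25.1% of the genes tested passed as higher and 23.6% as lower in KO. With an unadjusted p under 0.05 there was 1 member, Kpna4, against 54.9% of all genes, and DESeq2 called no member, against 33.5% of the 19203 genes to which it gave an adjusted p. The genes differed in level far more than the genotypes did. In FPKM, Kpna2 was highest, followed by Kpna6, Kpna3, Kpna4 and Kpna1, in this order in each of the 6 libraries. No neighbouring pair overlapped in its range over all libraries. FPKM divides by all counted exon bases, 8940 nt for Kpna4 and 4298 nt for Kpna3, where their reference transcripts have 3726 and 4069 nt. In raw counts Kpna4 was above Kpna3, with 2261 against 1351 reads in WT replicate 1. The order among Kpna6, Kpna3 and Kpna4 thus depends on the length used.

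Kpna2 (ENSMUSG00000018362.14, chr11:106988629-106999541, minus strand) encodes the importin-alpha known for its abundance in proliferating cells. Its level was 84.1, 85.4 and 83.3 FPKM in WT and 86.6, 91.3 and 84.6 FPKM in KO. The ranges overlapped, KO replicate 2 being the highest. The means were 84.3 ± 1.09 (SD, n = 3) and 87.5 ± 3.42, and the fold change was 1.04 with a 95% interval of 0.957 to 1.12 (edgeR adjusted p = 0.435). Kpna2 made up 61.3% ± 0.798 (SD, n = 3) of the summed FPKM of the 5 genes in WT and 60.5% ± 1.71 in KO, and it had the most reads of the family, more than 95.3% of the genes tested.

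Kpna6 (ENSMUSG00000003731.13, chr4:129643980-129672767, minus strand) and Kpna1 (ENSMUSG00000022905.12, chr16:35978750-36037131, plus strand) form a close pair, with 73.9% of aligned coding bases identical. Kpna6 was at 20.8, 19.6 and 20.003 FPKM in WT and at 20.9, 20.5 and 22.5 FPKM in KO. The genotypes overlapped, and the fold change was 1.06 with a 95% interval of 0.970 to 1.15 (edgeR adjusted p = 0.273). Kpna1 was lowest of the 5. It was at 4.56, 4.17 and 4.16 FPKM in WT and at 4.28, 4.53 and 4.48 FPKM in KO, and its highest and lowest values were both from WT. Its fold change was 1.03 with a 95% interval of 0.930 to 1.14 (edgeR adjusted p = 0.624).

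Kpna3 (ENSMUSG00000021929.9, chr14:61365211-61439874, minus strand) and Kpna4 (ENSMUSG00000027782.10, chr3:69067149-69127113, minus strand), whose products are known as adaptors for NF-kappaB subunits, form the other close pair, with 75.0% identical coding bases. Coding identity between all other pairs lay between 59.0% and 62.6%. Kpna3 was at 15.8, 14.9 and 16.7 FPKM in WT and at 17.8, 16.6 and 17.4 FPKM in KO. In FPKM the lowest KO library lay just under the highest WT library. The fold change was 1.09 with a 95% interval of 0.997 to 1.19 (edgeR adjusted p = 0.102). Kpna4 was at 12.7, 13.1 and 12.9 FPKM in WT and at 14.4, 13.5 and 14.6 FPKM in KO. All 3 KO libraries were above all 3 WT libraries, and the fold change was 1.096 with a 95% interval of 1.01 to 1.19 (edgeR adjusted p = 0.0588). Without KO replicate 2, both passed the test, Kpna3 at a log2 fold change of 0.15 (edgeR adjusted p = 0.0323) and Kpna4 at 0.17 (edgeR adjusted p = 0.00933). On the TMM-scaled log2 CPM, the genotypes did not overlap for 2 of the 5, Kpna3 and Kpna4, against 57.8% of all genes tested. No exon base of the 5 genes was shared with another gene model of the count files. Pairs this alike in sequence may still lose or exchange reads in mapping, which was not tested here.

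**Figure D1:**
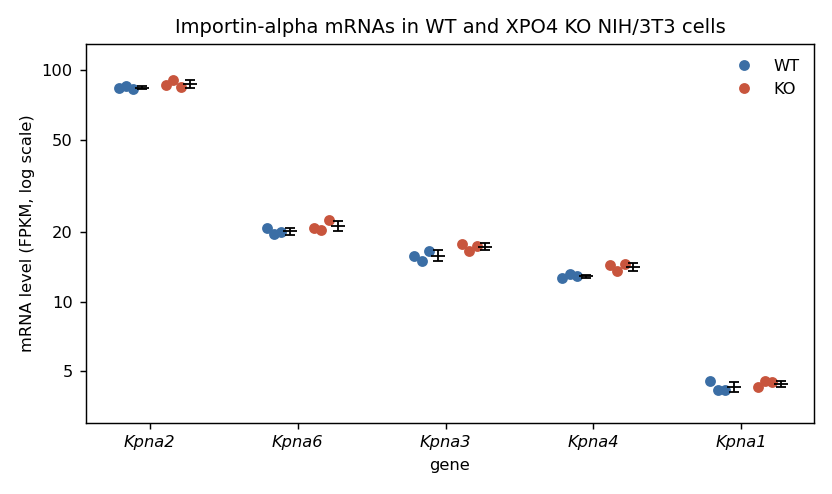
mRNA level (FPKM, log scale) of the 5 importin-alpha genes in 3 WT (blue) and 3 KO (red) libraries, each point a library, with the mean and SD in black beside the points. The genes span from 4.16 FPKM for Kpna1 to 91.3 FPKM for Kpna2, and the WT and KO points of Kpna4 do not overlap.

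Summed over the 5 genes, the level was 138.0, 137.3 and 137.0 FPKM in WT and 144.0, 146.5 and 143.6 FPKM in KO. The KO libraries were all higher, by a margin small beside the differences between the genes, and the sum was not tested because the members were chosen with earlier results known. The log2 fold changes of the 5 genes had a median of 0.08, and that of all genes tested was -0.0029. Kpna7, the importin-alpha known from oocytes and early embryos, had 1 read in WT replicate 3 and none in the other libraries.

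Over the 6 mRNA libraries, the genes most like each member were found by Pearson's r of log2 CPM among 10763 genes with a mean count of at least 100. For Kpna1 they were Heatr3 (r = 0.996), Deaf1 (r = 0.969) and Mrrf (r = 0.962). For Kpna2 they were Gpn1 (r = 0.995), Sae1 (r = 0.991) and Mrps28 (r = 0.984). Kpna3 was close to Zdhhc9 (r = 0.991) and Zfp395 (r = 0.986). Kpna4 was closest to Slc37a3 (r = 0.995), Gpd2 (r = 0.994) and Eps15 (r = 0.993), and Kpna6 to Terf2 (r = 0.991), Il18rap (r = 0.987) and Prdm9 (r = 0.987). With so many genes and only 6 libraries such values are easily reached: between 3 genes for Kpna1 and 155 for Kpna4 had r over 0.95. Among the members themselves r was at most 0.75, between Kpna3 and Kpna4, and it was 0.59 between Kpna1 and Kpna6. These correlations describe libraries that share a genotype and have no test.

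A fixed list of genes around the transport cycle of importin-alpha, with Kpna7 among them, was measured in the same libraries. Not all of them are direct partners of importin-alpha. Of the 13 genes listed for the cycle, 12 could be tested, of which 6 fell, 1 rose and 5 did not pass, with a median log2 fold change of -0.16. This is 58.3% called, beside 48.7% of all genes tested. Rcc1, the chromatin-bound exchange factor that loads Ran with GTP, fell from 19.0 ± 0.504 (SD, n = 3) to 14.6 ± 0.886 FPKM, a log2 fold change of -0.38 (edgeR adjusted p = 0.000221). Nup50, a nucleoporin that helps to release cargo from importin-alpha, fell from 28.1 ± 0.916 to 21.5 ± 0.716 FPKM, also by 0.38 on the log2 scale (edgeR adjusted p = 7.69e-05). Nup153, a nucleoporin of the nuclear basket, fell from 15.4 ± 0.846 to 12.1 ± 1.59 FPKM (log2 fold change -0.35, edgeR adjusted p = 0.00295).

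Ranbp2, the large nucleoporin of the cytoplasmic filaments, was the only gene of this list that passed as higher in KO. It rose from 14.0 ± 0.356 (SD, n = 3) to 16.8 ± 2.06 FPKM (log2 fold change 0.27, edgeR adjusted p = 0.00917). The 2 direct carriers, singled out here for their role after their values were seen, were both lower in KO. Kpnb1, which encodes importin-beta, had a log2 fold change of -0.16 (edgeR adjusted p = 0.0206), and Cse1l, the exportin of importin-alpha, also had -0.16 (edgeR adjusted p = 0.0411). Rangap1, the GTPase-activating protein of Ran, was the sixth gene that passed as lower, at -0.25. Ran, Ranbp1, Ranbp3, Nutf2 and Snupn did not pass.

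**Figure D2:**
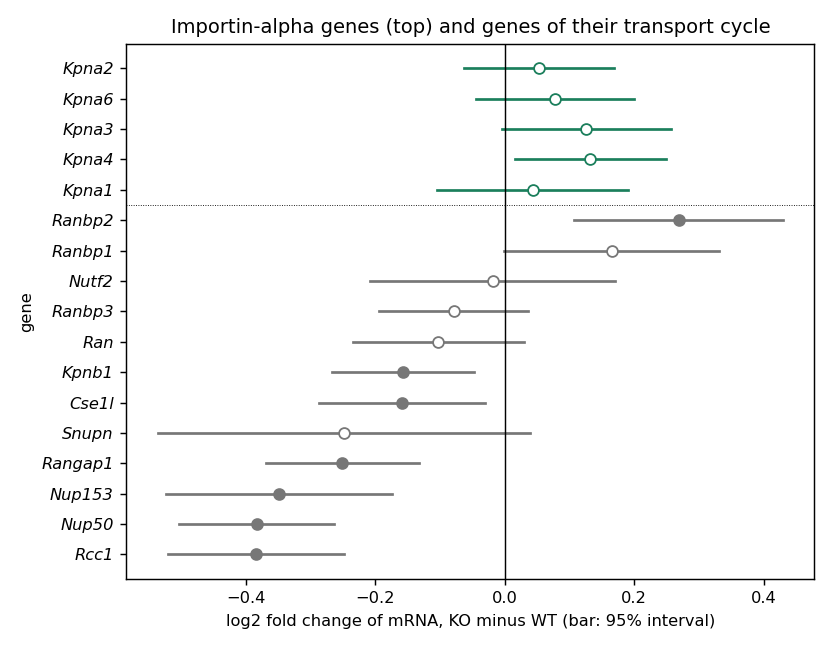
log2 fold change of mRNA, KO minus WT, with its 95% interval. Green marks the 5 importin-alpha genes and grey the 12 tested genes listed for their transport cycle. Filled points have an edgeR adjusted p under 0.05; the 5 green points are open and lie between 0.04 and 0.13, and the filled grey points run from -0.38 for Rcc1 to 0.27 for Ranbp2.

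Among 19 known cargoes of importin-alpha, 12 fell, 3 rose and 4 did not pass, with a median log2 fold change of -0.23. The share called was 78.9%, beside 48.7% of all genes, of which 25.1% were higher and 23.6% lower. The largest differences were those of the transcription factor gene Myc (-0.86, edgeR adjusted p = 5.41e-08), the NF-kappaB subunit gene Nfkb1 (-0.57, edgeR adjusted p = 1.51e-05), Trp53, which encodes p53 (-0.47, edgeR adjusted p = 1.64e-05), and the Ku80 gene Xrcc5 (-0.45, edgeR adjusted p = 0.000157). Kpna2 is known to follow proliferation, and 18 mitotic and replication genes were therefore read beside it. Of these, 13 fell, 1 rose and 4 did not pass, with a median of -0.22 and 77.8% called, beside the same shares of all genes. Cdk1, the mitotic kinase, rose (0.57, edgeR adjusted p = 2.36e-06), and the replicative helicase subunits Mcm6 (-0.54, edgeR adjusted p = 3.63e-06) and Mcm5 (-0.42, edgeR adjusted p = 2.67e-05) and the proliferation marker Mki67 (-0.31, edgeR adjusted p = 0.00358) fell. The Kpna2 difference from this list was not tested.

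The circRNAs inside the 5 genes were compared next. Of genes with a mean mRNA count of at least 100, 41.0% hosted a circRNA with both ends on exon edges, and 3 of the 5 members did. The members without a listed circRNA included Kpna2, with the highest mRNA level, and the member with the most circRNAs was Kpna1, with the lowest. The 13 circRNAs had a median spliced length of 564 nt and a median of 13 reads over the 12 libraries, against 515 nt and 16 reads for all circRNAs with both ends on exon edges. Of the 13, 8 were listed in the cytoplasm and 8 in whole-cell RNA, and 3 (23.1%) in both, against 31.0% of all exonic circRNAs of these fractions. None was listed in the nucleus, where 4.32% of exonic circRNAs were. Each circRNA of a fraction was listed in at least 2 of its 4 libraries and had at least 5 reads in the cytoplasm, 4 in whole-cell RNA and 3 in the nucleus summed over them, so a circRNA that is not listed may have been below such a minimum.

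**Figure D3:**
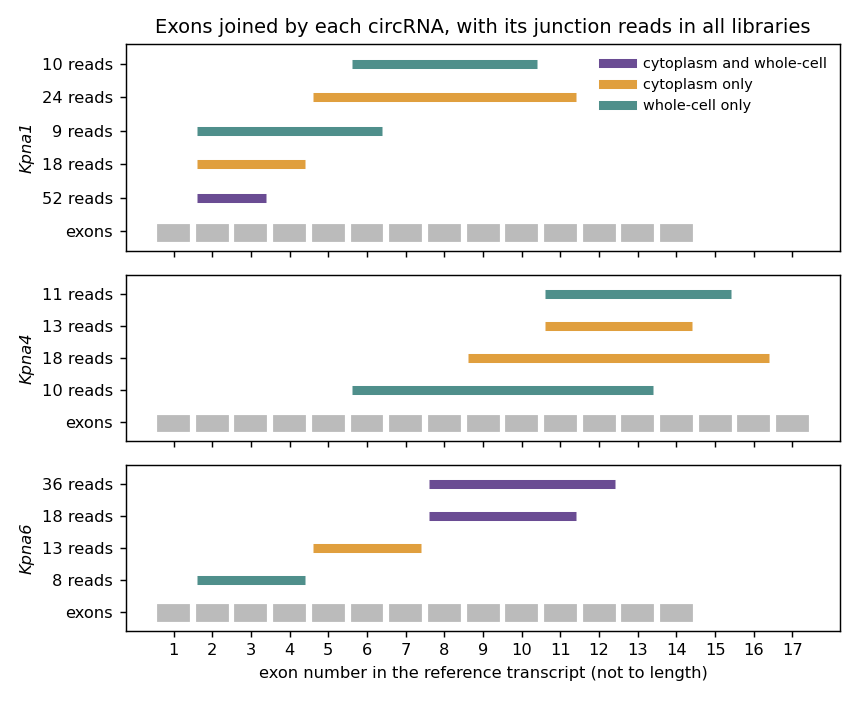
Exons joined by each of the 13 circRNAs of Kpna1, Kpna4 and Kpna6, by exon number in the reference transcript, with the junction reads summed over the 12 libraries at the left and the fractions that list it in colour. Circles of Kpna1 and Kpna6 both join exons 2 to 4, and 3 of the 13 are listed in both fractions.

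The gene structure of the pair Kpna1 and Kpna6 is shared, with 12 coding exon boundaries at matching places within 3 nt of their aligned sequences, and circRNAs of both genes used 2 of them. Both circKpna1(2-4) and circKpna6(2-4) ended at the boundary between exons 4 and 5, and both circKpna1(5-11) and circKpna6(5-7) started there. The other was the boundary between exons 11 and 12, where circKpna1(5-11) and circKpna6(8-11) ended. Circles of Kpna1 alone used the matching boundaries between exons 3 and 4, 5 and 6, 6 and 7, and 10 and 11. Circles of Kpna6 alone used those between exons 7 and 8 and between 12 and 13. Whether the genes share more boundaries than their separate use would give was not tested. Kpna3 and Kpna4 shared 16 boundaries in the same way, and only Kpna4 had circRNAs. Of the introns next to the Kpna6 circles, the longest was the 11237 nt upstream of circKpna6(2-4). The intron between exons 7 and 8, downstream of circKpna6(5-7) and upstream of circKpna6(8-11) and circKpna6(8-12), is 477 nt long, and the median intron beside all exonic circRNAs was 6122 nt upstream and 4481 nt downstream.

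In the cytoplasm, 3 of the 7 member circRNAs tested passed, 1 from Kpna1 lower and 2 from Kpna6 higher in KO. Over all cytoplasmic circRNAs 4768 of 8917 passed, or 53.5%, of which 2671 were higher and 2097 lower. With no scaling for depth these calls were 837 higher and 1516 lower. With scaling by library size only, 5 of the 7 passed, against 56.1% of all. In scaled reads the genotypes did not overlap for 6 of the 7, against 83.0% of all tested. circKpna1(5-11), of 7 exons and 785 nt, had 12 and 12 reads in WT against 0 and 0 in KO. It was thus read in WT alone in this fraction, at least 5.48-fold lower in KO when 3 reads over the KO group are taken as the floor (edgeR adjusted p = 0.000293). It was not listed in whole-cell RNA.

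circKpna6(8-12), of 5 exons and 597 nt, had 2 and 2 reads in WT against 11 and 7 in KO. Both KO libraries were above both WT libraries, by 6.57-fold in scaled reads with a 95% counting interval of 2.16 to 26.7 (edgeR adjusted p = 0.00143). circKpna6(5-7), of 3 exons and 316 nt, had 1 and 0 reads in WT against 7 and 5 in KO, a ratio of 17.5 with a counting interval of 2.59 to 748 (edgeR adjusted p = 0.00145). PCR reads without molecular identifiers are not independent molecules, so these intervals cover counting error only. Both circRNAs reached the 10-read minimum through their KO reads alone, and circKpna1(5-11) reached it through its WT reads alone. The p-values of these circRNAs are thus no separate support for the direction. Without WT replicate 2, circKpna6(8-12) (edgeR adjusted p = 0.0602) and circKpna6(5-7) (edgeR adjusted p = 0.0685) no longer passed, and circKpna1(5-11) was the only one left. With DESeq2, circKpna1(5-11) passed (adjusted p = 0.0342) and circKpna6(8-12) did not (adjusted p = 0.0626), and circKpna6(5-7) was given no adjusted p. Without either KO library circKpna6(5-7) had under 10 reads and could not be tested. It was not listed in whole-cell RNA.

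The other cytoplasmic circRNAs did not pass. circKpna1(2-4) and circKpna4(9-16) happened to have the same reads, 5 and 10 in WT against 1 and 2 in KO, with no overlap and a ratio of WT over KO of 3.43 with a counting interval of 0.969 to 18.5 (edgeR adjusted p = 0.0514). Both reached the 10-read minimum through their WT reads alone. Their log2 fold change was -1.71 in the main fit and -2.28 without WT replicate 1. It was -0.91 without KO replicate 1 and -1.75 without KO replicate 2. Without WT replicate 2 they had under 10 reads and could not be tested. circKpna4(11-14) had 1 and 3 reads in WT against 4 and 5 in KO (edgeR adjusted p = 0.0644). circKpna1(2-4), circKpna4(9-16) and circKpna4(11-14) were not listed in whole-cell RNA. circKpna1(2-3) had 5 and 7 reads in WT against 2 and 6 in KO, which overlapped (edgeR adjusted p = 0.961). circKpna6(8-11), with 1 and 1 reads in WT against 3 and 2 in KO, had too few reads to be tested.

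In whole-cell RNA none of the 6 member circRNAs tested passed. No circRNA of this fraction did, 0.0% of 8903, although 3405 of all (38.2%) and 3 of the 6 had an unadjusted p under 0.05, and DESeq2 called 7 of all and none of the members. With scaling by library size only, 2003 circRNAs (22.5%) passed, 3 of them from the members. With the replicate number as a block, 2054 of 8903 passed, also 3 of them from the members. In scaled reads the genotypes did not overlap for any of the 6, although circKpna4(6-13) had 2 reads in both WT libraries and in KO replicate 2, against 70.3% without overlap among all tested. circKpna6(8-12) had 0 and 0 reads in WT against 7 and 7 in KO, at least 4.80-fold higher in KO against a floor of 3 reads over the WT group (edgeR adjusted p = 0.0580). The smallest edgeR adjusted p over all circRNAs of this fraction was also 0.0580, so this value is not particular to circKpna6(8-12). In both fractions, each KO library had more reads of circKpna6(8-12) than each WT library. In whole-cell RNA the log2 fold change of circKpna6(8-12) was 5.85 in the main fit. It was 5.76 without WT replicate 1 and 5.74 without WT replicate 2. Without KO replicate 1 or without KO replicate 2 this circRNA had too few reads to be tested. With DESeq2 it did not pass (adjusted p = 0.471).

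circKpna6(8-11) had 6 and 4 reads in WT against 0 and 1 in KO, and circKpna4(11-15) had 5 and 5 in WT against 1 and 0 in KO. Both had a ratio of WT over KO of 9.71 with a counting interval of 1.38 to 422 (edgeR adjusted p = 0.0580). Both reached the 10-read minimum through their WT reads alone. Of the Kpna6 circles that start at exon 8, the form ending at exon 11 thus had 10 of its 11 whole-cell reads in WT and the form ending at exon 12 had all 14 in KO. In the cytoplasm, each KO library had more reads of both forms than each WT library. Neither form passed in whole-cell RNA, and the difference between them was not tested. circKpna1(6-10) had 4 and 4 reads in WT against 2 and 0 in KO (edgeR adjusted p = 0.132). circKpna1(2-3) had 10 and 8 in WT against 7 and 7 in KO (edgeR adjusted p = 0.655), and circKpna4(6-13) had 2 and 2 in WT against 4 and 2 in KO (edgeR adjusted p = 0.625). The 2 circRNAs with too few reads to be tested were circKpna1(2-6), with 2 and 2 in WT against 2 and 3 in KO, and circKpna6(2-4), with 4 and 3 in WT against 1 and 0 in KO.

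**Figure D4:**
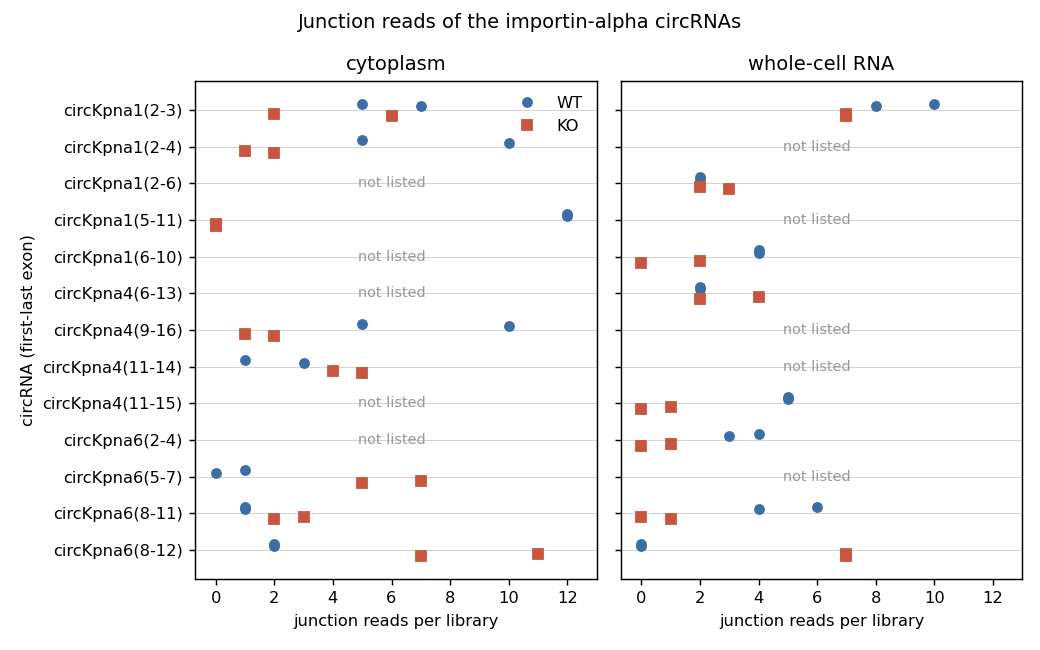
Junction reads per library of the 13 circRNAs in the cytoplasm (left) and in whole-cell RNA (right), with 2 WT (blue circles) and 2 KO (red squares) libraries each. circKpna1(5-11) has 12 reads in both WT and 0 in both KO cytoplasmic libraries, and circKpna6(8-12) has 0 in both WT and 7 in both KO whole-cell libraries.

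Summed per gene, the cytoplasmic junction reads of Kpna1 were 22 and 29 in WT against 3 and 8 in KO. Per 1000000 junction reads of the library this was 318 ± 50.3 (SD, n = 2) in WT and 92.8 ± 47.4 in KO. Those of Kpna6 went the other way, with 4 and 3 reads in WT against 21 and 14 in KO, or 44.0 ± 10.5 and 318 ± 137.0 on this scale. Those of Kpna4 were 6 and 13 in WT against 5 and 7 in KO, or 118 ± 57.7 and 105 ± 8.32. Kpna1 and Kpna6 thus had cytoplasmic circRNA sums without overlap between the genotypes in opposite directions, at mRNA fold changes of 1.03 and 1.06. These sums contain the reads of the circRNAs that passed the test in the cytoplasm, so they are no separate result. Among all single cytoplasmic circRNAs tested, 83.0% had no overlap in scaled reads. The share for sums of other genes was not computed, and a link to the mRNA level was not tested.

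In whole-cell RNA the sums of Kpna1 were 16 and 14 in WT against 11 and 10 in KO. Those of Kpna4 were 7 and 7 in WT against 5 and 2 in KO, and those of Kpna6 were 10 and 7 in WT against 8 and 8 in KO. The Kpna6 sum overlapped between the genotypes. Over all 13 circRNAs, the sum per 1000000 junction reads was 480 ± 97.6 (SD, n = 2) in WT and 515 ± 81.3 in KO cytoplasm, and 540 ± 44.6 in WT and 405 ± 10.8 in KO whole-cell RNA. With 2 libraries per genotype a two-sided exact permutation test cannot give a p below 0.333, and these sums were not tested.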

How the data were processed

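The authors trimmed circRNA-seq reads with cutadapt (version 4.1) and deposited find_circ (version 1.2) junction read counts per circRNA, and for mRNA-seq they deposited featureCounts (version 2.0.0, no strand option) read counts per gene after HISAT2 (version 2.0.5), both on GRCm38. The filter behind the circRNA lists is not given in the sources used here. Unlisted circRNAs were entered as 0. FPKM and TPM were computed from the counts and the Length column of the files. Genotypes were compared with edgeR (version 4.0.16, R 4.3.3; glmQLFit, glmQLFTest, TMM) within each data type and fraction, p-values being adjusted by Benjamini-Hochberg and called under 0.05. Genes passed edgeR's own filter, and circRNAs needed 10 reads over the 4 libraries of a fit. DESeq2 (version 1.42.0) was an alternative, as were other scalings, no filter, the replicate number as a block and leaving out each library. Tests were first checked on simulated counts. Circles were placed on GENCODE transcripts, and 55141 of 55401 gene IDs had a symbol. All members, Xpo4 and circRNAs were named, with up to 4 genes of each list by size of change among those that passed and, for likeness, the 3 genes with the highest r, of which 1 is not reported here. The members and lists were chosen with earlier results of these data known.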

Additional observations from a re-analysis of the deposited data

Results flagged for a closer look

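circKpna6(8-11) differed in opposite directions between the fractions. Its mean junction reads in KO minus WT were 1.5 in the cytoplasm, where both KO libraries (3 and 2 reads) were above both WT libraries (1 and 1), and -4.5 in whole-cell RNA, where both KO libraries (0 and 1) were below both WT libraries (6 and 4). The difference between the fractions was not tested, and the cytoplasmic values rest on 7 reads in all.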

How the results depend on the processing

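No member mRNA changed direction under the 11 alternatives, whose log2 fold changes ranged from 0.02 to 0.17. The count of member mRNAs called ranged from 0 to 2 when single libraries were left out. Leaving out single libraries gave log2 fold changes of 0.087 to 0.17 for Kpna3 and of 0.12 to 0.17 for Kpna4, and both passed only without KO replicate 2. Xpo4 also passed then, at 0.34. The member circRNAs called in the cytoplasm numbered 5 with scaling by library size only, 5 with no filter, 1 with DESeq2 and 1 to 5 without single libraries. In whole-cell RNA they numbered 3 with library size only and 0 to 1 without single libraries, and the calls over all circRNAs of this fraction went from 0 to 2003 with library size only. The log2 ratio of KO over WT for the summed member circRNAs in the cytoplasm was 0.10 per 1000000 junction reads and -0.41 in reads as deposited, at 50629 and 63335 junction reads in KO and 77818 and 81941 in WT. circKpna1(2-3) turned direction in the cytoplasm with DESeq2 (0.017) and without KO replicate 1 (from -0.49 to 0.95 over single libraries left out), and in whole-cell RNA without KO replicate 1 (0.090) or KO replicate 2 (0.031; from -0.79 over single libraries left out). Removing the scaling moved the median log2 fold change of all cytoplasmic circRNAs from -0.25 to -0.77, and circKpna6(5-7) then did not pass (edgeR adjusted p = 0.0608). In the cytoplasm DESeq2 called 797 of the 4785 circRNAs to which it gave an adjusted p. Of the members tested there with edgeR, only circKpna1(2-3), circKpna1(5-11) and circKpna6(8-12) were given one. Unless stated, the cause of these changes was not tested. Counts of 0 to 12 junction reads per library limit every circRNA value here.

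The labels do not say whether the replicate numbers pair the samples. Same-numbered mRNA libraries had correlations of their deviations of 0.22, 0.14 and -0.23, and different-numbered ones lay between -0.40 and 0.31. In whole-cell circRNA the values were 0.0043 for same-numbered and -0.0043 for different-numbered libraries. Deviations from a group mean are not independent of each other, so these values cannot decide the pairing. With the replicate number as a block, 0 member mRNAs, 3 cytoplasmic and 3 whole-cell member circRNAs were called, the last being circKpna6(8-12) (edgeR adjusted p = 0.00108), circKpna4(11-15) and circKpna6(8-11) (both 0.0290), and over all circRNAs in whole-cell RNA the block called 2054.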
